A study of Homo sapiens with 16 samples.

Results

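HCC827 and NCI-H1975 are established human lung adenocarcinoma lines, and the untreated baseline of each was compared here by RNA sequencing. The comparison used 6 of the 16 samples that the labels list, or of the 14 that were matched to a column of values: 2 libraries of HCC827 and 4 of NCI-H1975 controls. The series as a whole asked how gene expression differs once EGFR inhibitors no longer act and how a compound and an extract of Flos Magnoliae (magnolia flower buds) act on NCI-H1975. Both HCC827 libraries are labelled genotype WT, which sets them apart from afatinib-resistant HCC827 cells that were not analysed here. The 4 control libraries received neither magnolin nor the chloroform fraction of Flos Magnoliae, and whether they received a vehicle is not given in the sources used here. Each line is a single established line, no culture time or density is given, and the labels do not say that replicates came from separate cultures, so spread between replicates may be technical. HCC827 was deposited in its own table, controls 1 and 2 in another and controls 3 and 4 in yet another, each normalized separately. Cell line and table therefore cannot be told apart, and no test across tables was made. An exact permutation test of 2 libraries against 4 could not go below p = 0.0667 for any single gene.

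EGFR is a receptor tyrosine kinase that passes growth factor signals to the RAS-ERK and PI3K-AKT pathways, and mutant EGFR drives a share of lung adenocarcinomas. HCC827 carries an activating in-frame deletion in the EGFR kinase domain on an amplified gene, while NCI-H1975 carries an activating point mutation together with the gatekeeper mutation that blocks early EGFR inhibitors. Lung adenocarcinoma lines also differ in how much of the epithelial and alveolar program they keep, with NKX2-1 (the lineage factor of the distal lung) at one end and vimentin-rich, mesenchymal-like lines at the other.

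Levels are FPKM (fragments per kilobase of gene, scaled to the size of the library), which allow genes to be compared per length, after rescaling so that the median gene has the same level in all 6 libraries; the scaling factors lay between 0.955 and 1.102. Values are given in the order HCC827 replicates 1 and 2, then NCI-H1975 controls 1 to 4. Reads rebuilt from FPKM and gene length came to 15.9 M and 16.4 M for HCC827 and 16.6 M to 21.3 M for the controls. At that depth 3 reads on a gene of 1 kb correspond to 0.140 to 0.182 FPKM, so lower values of short genes rest on a few reads. A protein-coding gene was called higher or lower where both HCC827 libraries lay at least 1 on the log2(FPKM + 1) scale beyond every control library, in the same direction. Genes needed at least 1 FPKM in at least 2 of the 6 libraries, which 11584 of 19951 protein-coding genes met.

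Control replicate 1 stood apart from the other NCI-H1975 controls. Across genes its Spearman correlation with controls 2 to 4 was 0.886 to 0.915, against 0.962 to 0.994 among those 3 and 0.995 between the HCC827 libraries. It differed from each other control by at least 1 on the log2 scale in 763 genes, while control 2 did so in 18. Correlation of HCC827 with the controls was 0.780 to 0.825 and was highest with control 1. Mitochondrial reads made up 9.42% of control 1, 5.83% to 8.06% of the other controls and 7.20% to 7.48% of HCC827. Of 19 genes at 5 FPKM or more in both HCC827 libraries and 0 in controls 2 to 4, 14 were listed at 0 in control 1 as well, and the highest of the others reached 1.63% of the HCC827 level. List counts that leaving out control 1 moves by more than 1.5 times are given both ways.

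Against all 4 controls, 595 genes (5.14% of those considered) were higher in HCC827 and 430 (3.71%) were lower. Without control 1 the counts were 913 (7.88%) and 727 (6.28%). Counts over gene lists are set beside these shares of all genes. The table of controls 1 and 2 alone gave 751 higher (6.48%) and 654 lower (5.65%), and the table of controls 3 and 4 alone gave 1061 (9.16%) and 889 (7.67%). By the same rule, controls 1 and 2 lay above controls 3 and 4 in 16 genes (0.138%) and below in 37 (0.319%). The rule needs controls 1 and 2 to lie together beyond the other pair, and control 1 stood apart. These counts therefore do not give the full difference between 2 tables of 1 line. With any gap above 0, the control tables differed in 6865 genes, beside 3146 higher and 3643 lower between the lines. The former compares 2 libraries with 2, the latter 2 with 4. The median difference over all genes was -0.04, close to 0 as the rescaling sets it. Of the called genes, 467 of the 595 and 274 of the 430 also held against each of 8 NCI-H1975 libraries from treated cells, which the choice of genes had not used but which share the cell line and tables of the controls.

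**Figure D1:**
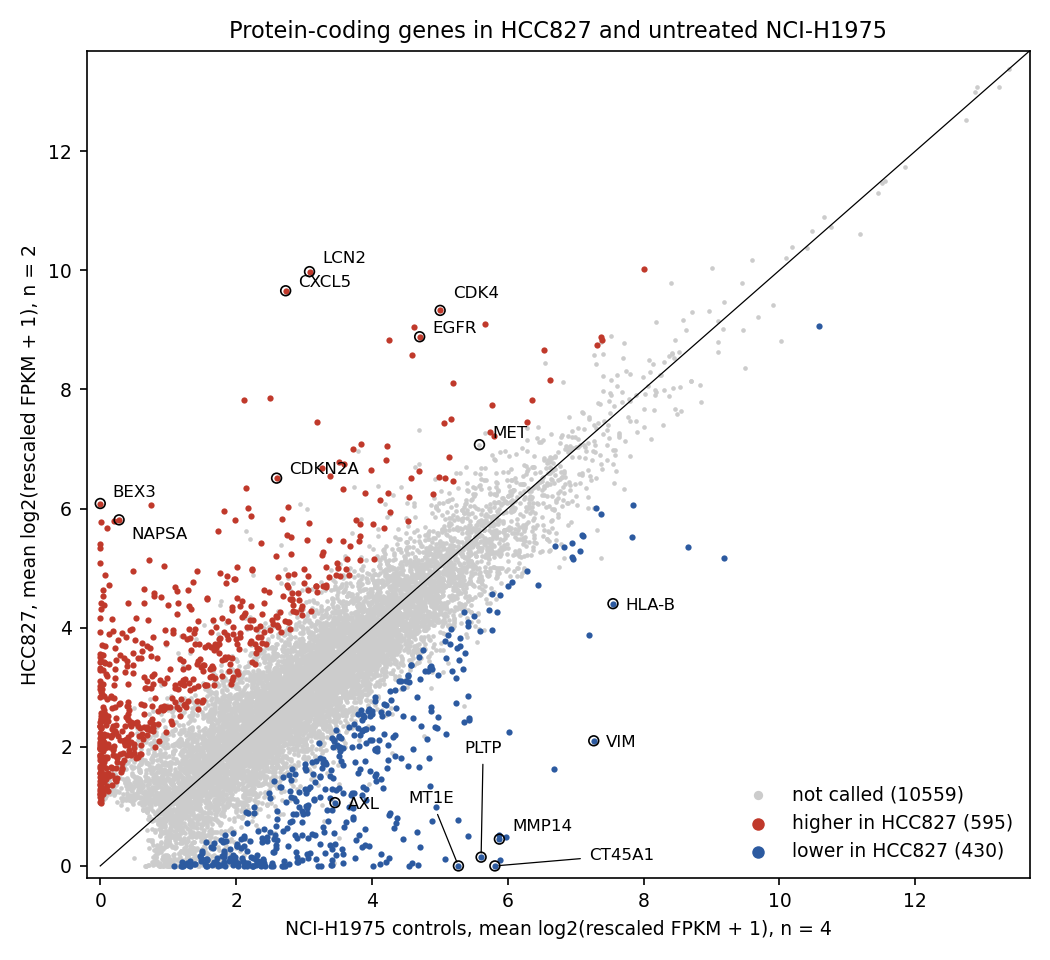
Each point is 1 of 11584 protein-coding genes, with the mean log2(rescaled FPKM + 1) of 4 NCI-H1975 controls on the x axis and of 2 HCC827 libraries on the y axis; the 595 genes called higher are red, the 430 called lower are blue and the line marks equal levels. LCN2, CXCL5, CDK4 and EGFR stand far above the line, while VIM, MMP14 and MT1E stand far below it.

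EGFR itself was far higher in HCC827 (ENSG00000146648, hg38 chr7:55019021-55211628, plus strand). Its level was 484 and 459 in HCC827 against 38.5, 15.1, 25.4 and 26.4 in the controls, a mean of 471 ± 17.6 (SD, n = 2) against 26.4 ± 9.55 (SD, n = 4), or 17.9-fold. The groups lay far apart, and among the controls library 1 was the highest and library 2 the lowest. ERBB3, the kinase-impaired partner that links the family to PI3K, was at 9.85 and 11.1 in HCC827 and at 2.65, 0.32, 0.335 and 0.239 in the controls. ERBB2, the receptor without a known ligand, was at 15.9 and 17.1 against 4.79, 3.48, 5.66 and 5.37. All 3 considered receptors of the family were thus higher in HCC827, by 4.18, 2.77 and 1.60 in difference of mean log2 level for EGFR, ERBB3 and ERBB2, and the ERBB2 call did not hold against the 8 treated libraries. The ligands did not follow. None of the 6 considered ligands was called, and in 3 of them control 1 alone was near or above the HCC827 level. AREG (amphiregulin) was at 81.4 and 80.5 against 55.5, 10.4, 5.45 and 6.72, and EREG (epiregulin) at 60.8 and 57.8 against 75.5, 13.6, 10.5 and 9.84. Without control 1, AREG, EREG and BTC (betacellulin) were higher in HCC827, while TGFA (7.82 and 6.77 against 23, 4.2, 3.7 and 4.85) was called in neither case.

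Genes next to EGFR on chromosome 7 were higher along with it. Within 1 Mb, 7 of 11 considered neighbours were higher in HCC827 (beside 5.14% of all genes) and none was lower (beside 3.71%). The median difference was 1.53 with a range of 0.84 to 3.97, so that all 11 lay above the median of all genes. Against all 12 NCI-H1975 libraries 5 of the 7 calls held, those of PSPH and PHKG1 being lost. The differences were largest close to the gene. VOPP1, 224 kb downstream, was at 391 and 367 against 37.7, 21.8, 17.9 and 19.5. SEC61G, a subunit of the channel that passes proteins into the endoplasmic reticulum and 259 kb upstream, was at 562 and 536 against 72.3, 84.9, 25.8 and 38. LANCL2, between EGFR and VOPP1, was at 83.4 and 74.7 against 9.76, 14.5, 10.2 and 9.8. In each of these 3 genes the lowest HCC827 library exceeded the highest control several-fold. Farther out, the called genes had smaller differences: 1.53 for MRPS17 (a mitochondrial ribosomal protein), 1.63 for PSPH (the last enzyme of serine synthesis), 1.74 for SUMF2 and 1.53 for PHKG1. In the same stretch, 4 neighbours, ZNF713, NIPSNAP2, CCT6A and CHCHD2, missed the call with differences of 0.84, 0.89, 1.43 and 1.02. Beyond 3 Mb on the other side, GRB10 (-0.86), FIGNL1 (-0.26) and COBL (0.59) were not called, and DDC, an amine-forming decarboxylase, was at 4.78 and 4.22 against 0.0614 or less. Copy number was not analysed here, and its part in these levels was not tested.

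A second stretch with sharper edges lay around CDK4, the cyclin D partner that starts the cell cycle, on chromosome 12. CDK4 was at 668 and 615 in HCC827 against 42.7, 32.3, 25.8 and 26.2, a 20.2-fold difference of means. OS9, an endoplasmic reticulum lectin 26 kb away, was at 535 and 526 against 18.5, 21.9, 28 and 27. PIP4K2C, a phosphoinositide kinase 144 kb away, was at 454 and 449 against 30.4, 14.4, 15.6 and 15.3. These 3 genes were about as abundant as EGFR in HCC827, and no control exceeded 42.7 in any of them. TSPAN31 (30.9 and 31.9 against at most 3.69), ARHGEF25 and MARCHF9 were also higher, though TSPAN31 and MARCHF9 overlap CDK4 and the strand setting of the counts is not given in the sources used here, so reads of the overlap cannot be told apart. In between, DTX3 was at 2.42 and 2.64 against 2.24 to 2.78 and B4GALNT1 at 0.862 and 1.22 against 2.05 to 2.4, so not every gene inside the stretch was higher. Other low genes there were: ARHGEF25 was at 4.31 and 3.5 against 0.627 to 0.756, and AGAP2, 6 kb from CDK4, lay above every control at 1.15 and 1.52 against 0.0555 to 0.1 but missed the call with a gap of 0.97. Just outside it the differences were small: METTL1, 12 kb beyond CDK4, differed by -0.09, TSFM, 27 kb beyond, by -0.21, and DCTN2, 200 kb before, by 0.08. In all, 5 of the 30 considered genes within 1 Mb of CDK4 were higher (beside 5.14% of all genes), with a median of 0.11. CDK4 was examined as a centre after its values had been seen.

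**Figure D2:**
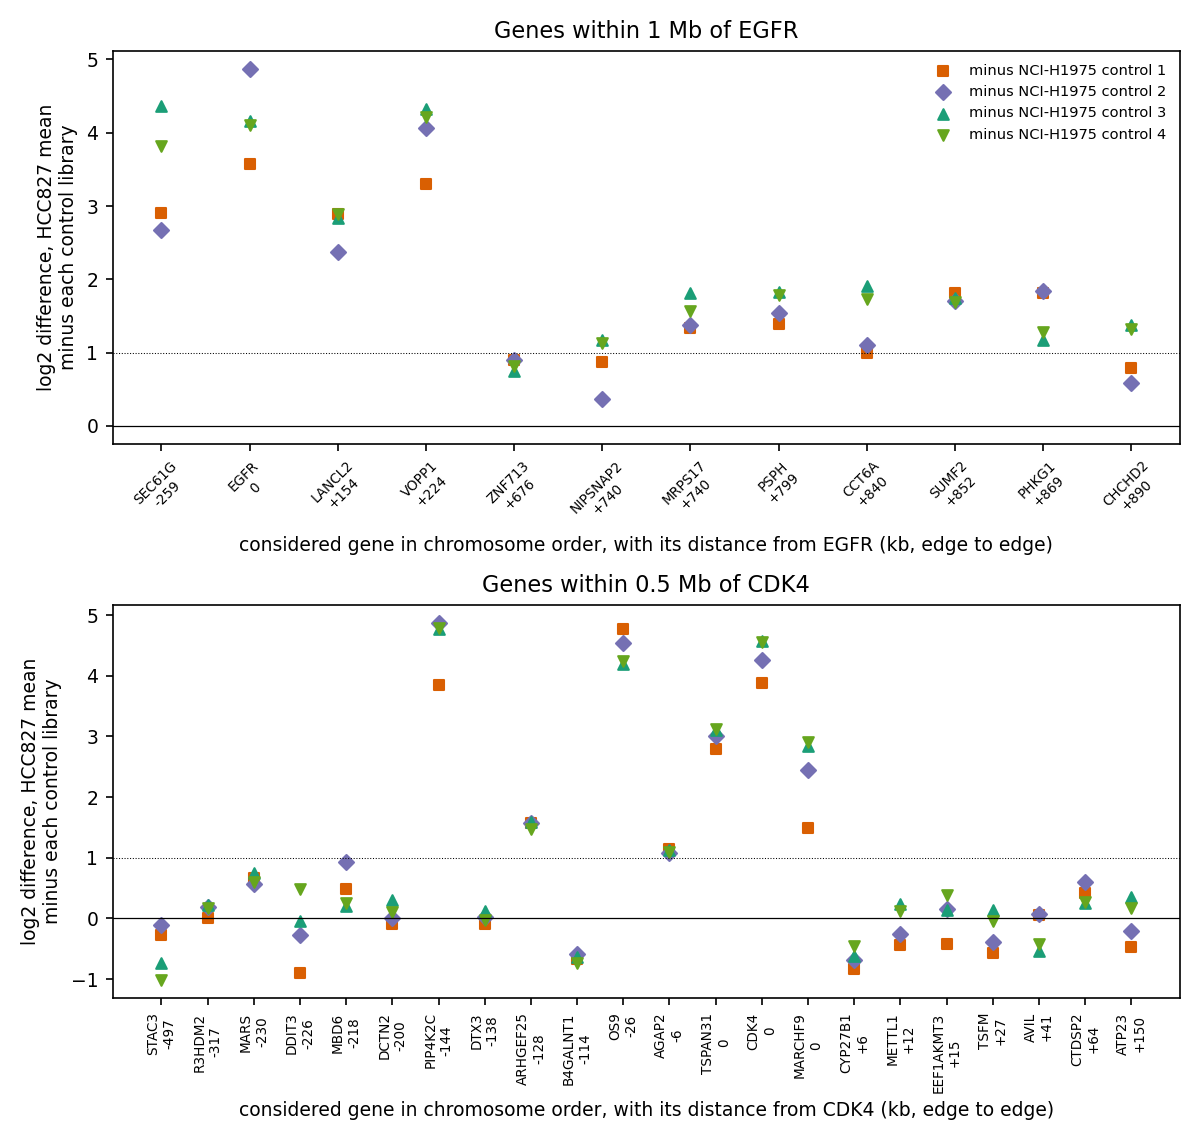
For each considered gene in chromosome order within 1 Mb of EGFR (top) or 0.5 Mb of CDK4 (bottom), the 4 markers give the HCC827 mean minus each NCI-H1975 control on the log2(rescaled FPKM + 1) scale; numbers under the names are distances in kb and the dotted line marks a difference of 1. Around EGFR every marker is above 0, while around CDK4 the high differences sit between PIP4K2C and MARCHF9, with DTX3 and B4GALNT1 among them at or below 0.

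CDKN2A, which encodes the CDK4 inhibitor p16 and, in another reading frame, p14ARF, was high in HCC827 too, at 87.2 and 93.2 against 5.73, 5.03, 4.97 and 4.52. The neighbouring MTAP, an enzyme of methionine salvage, was at 11 and 11.6 against 3.49, 1.95, 1.76 and 1.85. MLLT3, FOCAD and KLHL9 in the same part of chromosome 9 were higher as well, with differences of 1.89, 1.22 and 1.20, whereas CDKN2B next to CDKN2A was at 5.94 and 5.74 against 4.16 to 5.28 and was not called. Of the 18 considered G1 cyclins, kinases and inhibitors, only CDK4, CDKN2A and MTAP (grouped with them for its place beside CDKN2A) were called, all higher (16.7%, beside 5.14% of all genes). All 29 considered mitosis genes and all 29 DNA replication genes were without a call, beside 5.14% of all genes higher and 3.71% lower. Leaving out control 1 gave 1 and 0 calls. Shares of all genes this small leave room for few calls among 29 members, so these counts are only a description. CDC20, which activates the anaphase-promoting complex, was at 198 and 174 against 105, 157, 108 and 111, and PCNA, the sliding clamp of DNA polymerase, at 159 and 146 against 200, 326, 153 and 155.

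Along the whole genome, runs of 7 consecutive considered genes with at least 4 called in 1 direction formed 20 regions, 13 higher and 7 lower in HCC827, by a rule added after the data had been seen. Those around EGFR, CDK4 and CDKN2A were among the higher ones. Others held gene families or lineage factors. On chromosome 14, NKX2-1, SFTA3, PAX9 and FOXA1 were higher together. The HOXB cluster on chromosome 17 held 6 higher genes, HOXB2 and HOXB5 to HOXB9. Among the lower regions, PCDHA1, PCDHA7, PCDHB5, PCDHB8 and PCDHB16 of the clustered protocadherins (neuronal adhesion molecules) on chromosome 5 were called, with PCDHB16 at 0.41 and 0.605 against 4.22 to 6.16. A region of chromosome 10 held VIM, RSU1 and NMT2, and another held IFIT1, IFIT2 and IFIT3. By chromosome, the share called higher ran from 0.00% for the mitochondrial genome and 1.27% for chromosome 18 to 8.12% for chromosome 8.

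Some genes were read in 1 line and listed at 0 in the other. Of the considered genes, 40 were listed at 0 in all 4 controls and 56 in both HCC827 libraries. Such genes passed the filter only through the line that reads them, so these counts are a description and calls among them follow in part from the filter. BEX3 (a small X-linked adaptor protein also known as NADE) was at 67.3 and 66.4 in HCC827 and listed at 0 in all controls. SFTA2, a surfactant-associated protein of the distal lung, was at 41.1 and 41.4 against 0 in all controls. HAVCR1 (kidney injury molecule KIM-1) followed at 40.9 and 37.9 and GAL (the neuropeptide galanin) at 35 and 31.3, again with 0 in every control, then TOX3, CPVL, HLA-DRB1 and TRPC6 at means of 17, 14.3, 10.9 and 10.5. In the other direction, CT45A1, a cancer-testis antigen, was listed at 0 in both HCC827 libraries and at 96.5, 55.8, 37.5 and 45.5 in the controls. MT1E (a zinc-binding metallothionein) was at 0 against 131, 50.8, 17.7 and 16.5, GSTT2B (a glutathione transferase) at 0 against 15.8, 30.5, 21.7 and 24.2, and CMBL (a hydrolase) at 0 against 15.9, 13.7, 15.8 and 15.7. Genes chosen in this way cannot overlap between the lines. The 8 that HCC827 alone read were listed at 0 in the treated NCI-H1975 libraries as well, except for HLA-DRB1 and TOX3 at up to 0.0448 and 0.0219. CT45A1 and its copy CT45A2, HLA-DRB1, MT1E and GSTT2B have near-identical relatives or vary between genomes, so how their reads were assigned is uncertain.

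The upstream sequences of 4 of these genes are shown because 3 are read in 1 line only while EGFR is read in both at different levels. They are the 250 bases before the start in RefSeq (GRCh38.p14), written 5′ to 3′ on the strand of the gene, with CG dinucleotides in capitals. EGFR lies at chr7:55018767-55019016 (plus), BEX3 at chrX:103376073-103376322 (plus), SFTA2 at chr6:30932171-30932420 (minus) and CT45A1 at chrX:135713389-135713638 (plus).
EGFR: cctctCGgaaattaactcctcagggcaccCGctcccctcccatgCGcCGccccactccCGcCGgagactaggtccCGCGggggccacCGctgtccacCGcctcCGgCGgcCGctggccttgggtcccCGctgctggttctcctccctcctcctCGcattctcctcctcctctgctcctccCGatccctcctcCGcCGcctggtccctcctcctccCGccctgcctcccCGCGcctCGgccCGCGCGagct
BEX3: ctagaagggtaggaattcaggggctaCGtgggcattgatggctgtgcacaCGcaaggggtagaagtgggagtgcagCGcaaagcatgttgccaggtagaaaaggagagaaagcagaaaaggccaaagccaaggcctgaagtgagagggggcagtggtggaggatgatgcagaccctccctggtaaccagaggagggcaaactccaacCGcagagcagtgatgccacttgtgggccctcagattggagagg
SFTA2: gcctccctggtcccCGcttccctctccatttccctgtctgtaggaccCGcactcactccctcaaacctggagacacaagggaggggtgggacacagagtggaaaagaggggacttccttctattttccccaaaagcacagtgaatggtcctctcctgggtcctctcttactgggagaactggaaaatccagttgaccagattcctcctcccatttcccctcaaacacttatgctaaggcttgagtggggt
CT45A1: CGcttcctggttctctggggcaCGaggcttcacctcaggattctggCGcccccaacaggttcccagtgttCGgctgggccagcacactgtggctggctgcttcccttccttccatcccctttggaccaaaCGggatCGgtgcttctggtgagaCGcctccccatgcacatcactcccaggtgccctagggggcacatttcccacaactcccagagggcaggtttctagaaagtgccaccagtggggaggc
The EGFR stretch holds 25 CG dinucleotides, BEX3 4, SFTA2 2 and CT45A1 7, beside a median of 11 and quartiles of 3 and 23 over 27305 promoters of the same length. The letters TATAAA, searched on both strands, occur in 11.1% of all promoters and in none of these 4. A promoter was matched for 81.7% of the genes considered, but for 72.1% of those higher and 76.0% of those lower, so the CG content of the called genes as a group was not compared.

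Epithelial genes were mostly higher in HCC827 than in controls 2 to 4, and control 1 lay near HCC827. Of 38 considered junction and keratin genes, 9 were higher against all controls (23.7%, beside 5.14% of all genes) and none was lower, while without control 1 the count was 32 (beside 7.88%). CDH1 (E-cadherin) was at 130 and 119 in HCC827 against 74.2, 5.48, 6.84 and 8.53. EPCAM was at 162 and 156 against 202, 14.8, 9.98 and 11.8. KRT7, a simple-epithelium keratin, was at 369 and 330 against 371, 66.9, 53.3 and 55.6. In all 3, control 1 was nearer to HCC827 than to the other controls, and ESRP1, GRHL2, CLDN7, CLDN4 and RAB25 had the same pattern. The calls that control 1 did not remove included the epithelial ETS factors ELF3 (54.1 and 52.1 against 5.46, 8.13, 8.19 and 8.16) and EHF (21.5 and 21.9 against 7.19, 1.16, 1.17 and 1.02). JUP (plakoglobin), CGN (cingulin), TJP3, the membrane proteases ST14 and PRSS8 and the keratins KRT8 and KRT18 completed them. KRT8 was at 446 and 408 against 124, 177, 170 and 169, so both lines read simple-epithelium keratins strongly, as the label of epithelial cells states.

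Mesenchymal and matrix genes more often went the other way. Of 28 considered, 12 were lower in HCC827 (42.9%, beside 3.71% of all genes) and 4 were higher (14.3%, beside 5.14%). Both shares were thus above those of all genes. VIM (vimentin, the intermediate filament of mesenchymal cells) was at 4.11 and 2.6 in HCC827 against 131, 216, 136 and 142, or 46.7-fold lower. MMP14, a membrane-bound matrix protease, was at 0.348 and 0.385 against 22.2, 68.5, 87.5 and 82.5. VIM and MMP14 were named for their large gap, so their distance from the controls follows from that choice. Control 1, although high in epithelial genes, was at 131 for VIM, and it was the lowest control for MMP14. The repressors of E-cadherin ZEB1 (0.259 and 0.267 against 1.76, 3.07, 3.74 and 3.9) and SNAI2 (0.953 and 0.734 against 10.5, 8.09, 4.87 and 5.28) were lower too. LOX, SPARC, CALD1, COL12A1, COL5A1, COL6A1 and COL1A2 were also among the lower members, the last listed at 0 in HCC827. The 4 higher members were the basement membrane collagens COL4A1 and COL4A2, the epithelial protease MMP7 and TWIST2, a bHLH factor at 9.5 and 8.08 against 0 in every control. Most markers of fibroblasts, endothelium and immune cells were below 1 FPKM in every library. Over 14 genes their sum was 1.48 and 1.77 in HCC827 and 3.42 to 7.37 in the controls. CD3E was at 0 in all 6, PTPRC reached 0.0116 and COL3A1 0.00871. The exceptions were CDH5 (up to 3.99, in control 3), CSF1R (2.67 in control 1) and PECAM1 (up to 1.65, in control 3). Without control 1, CDH5 was called lower in HCC827. The part of these markers in the differences was not tested.

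**Figure D3:**
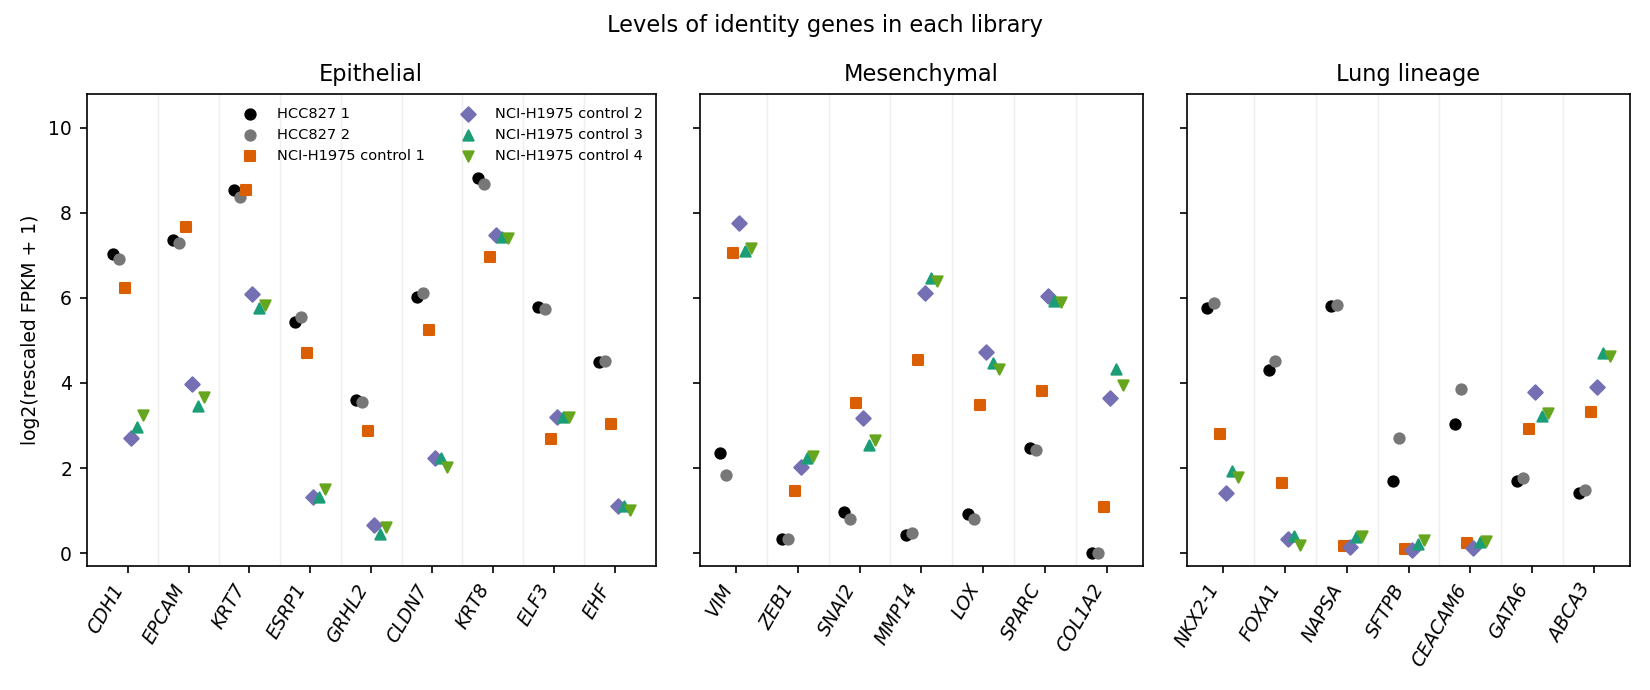
Levels of chosen epithelial, mesenchymal and lung lineage genes as log2(rescaled FPKM + 1), with 1 marker per library (2 HCC827, 4 NCI-H1975 controls). Control 1 sits with HCC827 for CDH1, EPCAM and KRT7 but with the other controls for VIM and ZEB1, and NAPSA is read in HCC827 and near 0 in all controls.

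Lung lineage and secretory genes set HCC827 apart with or without control 1. Of 14 considered lineage and alveolar genes, 7 were higher (50%, beside 5.14% of all genes) and 3 lower (21.4%, beside 3.71%). NKX2-1 was at 53.3 and 57.4 against 5.99, 1.66, 2.79 and 2.44. NAPSA (napsin A, the protease that trims surfactant protein B and a diagnostic marker of lung adenocarcinoma) was at 54.6 and 55.6 against 0.119, 0.108, 0.306 and 0.332. FOXA1, a pioneer factor of endodermal epithelium, was at 18.8 and 21.7 against 2.13, 0.254, 0.315 and 0.149. SFTPB, CEACAM6 and LPCAT1 were higher as well. SFTPB itself, surfactant protein B, was low at 2.22 and 5.54 against at most 0.237. The 3 lower members were ABCA3, the lipid transporter of lamellar bodies (1.66 and 1.82 against 9.05, 13.9, 25 and 23.7), the endodermal factor GATA6 (2.25 and 2.42 against 6.53 to 12.7) and RNASE1, listed at 0 in HCC827. The list therefore did not differ in 1 direction.

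Of 12 considered mucin, secretory and goblet cell genes, 9 were higher against all 4 controls (75.0%, beside 5.14% of all genes) and none was lower. This was the highest share among lists with at least 5 considered members. The list holds membrane-bound mucins as well as secreted ones. LCN2 (lipocalin 2, an iron-scavenging secreted protein) was at 971 and 1044 in HCC827 and at 1.67, 16.7, 10.9 and 8.12 in the controls. MUC5B, the main gel-forming mucin of the lower airway, was at 39.8 and 74.5 against 0.0402, 0.0518, 0.284 and 0.233. PIGR, which carries IgA across epithelium, was at 16.7 and 29 against 0.0618 or less. The HCC827 libraries differed from each other in MUC5B and PIGR more than in most genes (their median span over all genes was 0.08 on the log2 scale), with replicate 2 the higher in both. MUC16 (the CA125 antigen), MUC4, MUC13, MUC20, AGR2 and SPDEF, the goblet cell ETS factor, were the other members called. HOX genes, which give cells positional identity, were higher in 9 of 16 (56.2%, beside the same 5.14%) with none lower. HOXA3 was at 9.67 and 9.39 against 0.124 or less, HOXB7 at 7.24 and 7.33 against 0.0699 or less. Like MUC5B and PIGR, both passed the filter only through HCC827, so calls of such members follow in part from the filter. SOX2, a factor of airway and squamous progenitors, was at 17.9 and 22 against 2.44, 0.862, 0.645 and 0.516. It was among 3 higher of 8 considered basal and squamous markers (37.5%, beside 5.14%), and none was lower (1 without control 1). Their median difference was only 0.17, with a range of -2.82 to 3.38, so the markers did not differ as a set.

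Among receptor kinases that can bypass EGFR, AXL and MET differed in opposite ways. AXL was at 1.01 and 1.17 in HCC827 against 24.9, 7.57, 6.72 and 7.46. MET, the hepatocyte growth factor receptor, was at 135 and 132 against 121, 33.9, 33.1 and 35.4, and was called higher only without control 1. IGF1R was at 5.36 and 5.6 against 4.77, 3.75, 5.22 and 4.89 and was not called. AXL was thus lower against every control, MET lay above every control but by a gap of only 0.12 over control 1, and IGF1R differed by 0.20. Of 18 considered bypass genes, DDR1, a collagen receptor (22.7 and 23.3 against 4.39 to 9.21), FGF2 (5.9 and 4.44 against 0.0551 or less) and HGF (1.04 and 1.14 against 0.022 or less) were higher (16.7%, beside 5.14% of all genes), and without control 1 the count was 6 (beside 7.88%). Of 17 ERK feedback genes, 1 was called (5.88%, near the 5.14% of all genes; 2 without control 1). It was SPRY1, at 7.7 and 7.05 against 0.862 to 2.24. DUSP6, the ERK phosphatase, was at 7.66 and 10.7 against 2.86 to 3.86 and missed the call. Of 18 considered YAP-TEAD targets, 2 were higher (11.1%, beside 5.14%) and 3 lower (16.7%, beside 3.71%), with a median difference of 0.12. CYR61 (460 and 354 against 71, 151, 80.5 and 80.4) and F3 (tissue factor) were higher. The CYR61 call did not hold against the treated libraries. CTGF (2.66 and 1.7 against 19.3, 47.7, 20.6 and 19.6), ANKRD1 and AXL were lower.

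Chemokine, cytokine and NF-kB genes differed in both directions. Of 36 considered, 9 were higher in HCC827 (25%, beside 5.14% of all genes) and 4 lower (11.1%, beside 3.71%), with a median difference of 0.02. Without control 1 the counts were 9 higher and 8 lower (beside 7.88% and 6.28%). CXCL5, a neutrophil chemokine, was at 783 and 829 against 7.72, 8.44, 3.87 and 3.83, the largest difference among them. CXCL1 (166 and 196 against 18.3, 81, 31.5 and 30.8), CXCL3, CCL20, CSF2, BIRC3 and TNFAIP2 were also higher. SAA1 and SAA2, acute phase proteins with near-identical sequence, were at 110 and 108 and at 16.8 and 16.3, with 0 in control 1 for both and up to 26.5 and 4.93 in the other controls. Lower were IL11 (0.931 and 1.02 against 22.4, 4.69, 4.25 and 3.83), IL24, IL32 and the receptor IL7R. CXCL8 (44.1 and 55 against 37.5, 81.8, 24.3 and 24.2) and IL6 (6.97 and 5.59 against 8.01 to 18.7) were not called.

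Of 31 considered interferon-stimulated genes, 8 were lower (25.8%, beside 3.71% of all genes) and none was higher, and without control 1 the counts were 9 and 1. IFITM2, a membrane protein that blocks virus entry, was at 0.483 and 0.269 against 26.8, 18.1, 21.4 and 18.7. OASL was at 0.442 and 0.523 against 11, 8.08, 8.5 and 7.85. IFIT1 was at 1.51 and 2.06 against 11.5, 10.7, 8.82 and 8.38. The 4 controls were close together in all 3 genes, and IFIT2, IFIT3, IFITM3, IFI27 and HERC5 had the same direction. Of the 8 lower calls, 4 held against the treated libraries. For antigen presentation, HLA-B was at 20.1 and 20.2 against 56.5, 324, 257 and 254 and its light chain B2M at 59 and 58.8 against 138, 221, 154 and 155. The peptide-trimming ERAP2 and the class I regulator NLRC5 were lower as well, while the immunoproteasome subunit PSMB10 (13.6 and 13 against 2.02 to 4.77) and HLA-DRB1 were higher. The 4 lower of 20 antigen presentation genes (20%, beside 3.71% of all genes) became 8 without control 1 (beside 6.28%), with TAP1 among them.

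Metabolic and transport genes differed gene by gene. Of 21 considered cholesterol and fatty acid genes, 6 were higher (28.6%, beside 5.14% of all genes) and none was lower: FASN (fatty acid synthase) was at 152 and 158 against 54.9, 35.6, 64.7 and 59.8, SREBF1, its regulator, at 42.4 and 48.4 against 11.3 to 17.1, and ACACA and SCD were higher by 1.48 and 1.53. Against the treated libraries 2 of the 6 held, ACACA among them. Among aryl hydrocarbon receptor and xenobiotic genes, CYP1B1 was lower (13.6 and 13.8 against 71.8, 205, 171 and 180) and so was the aldose reductase AKR1B1 (34.6 and 35.3 against 198, 1031, 816 and 692). In the same list ALDH1A3, CYP24A1, AKR1B10, CYP2S1 and CYP2J2 were higher, which makes 5 higher (25%, beside 5.14%) and 2 lower (10%, beside 3.71%) of 20, or 5 and 5 without control 1. Of 11 considered ABC transporters, not all of them drug exporters, 3 were higher (27.3%, beside 5.14%) and 2 lower (18.2%, beside 3.71%). The lower ones were ABCA3 and ABCG2, which exports several kinase inhibitors (3.28 and 3.39 against 11.6, 20.1, 15.9 and 18.3). The higher ones were ABCC2 (12 and 11.3 against 0.467 to 0.807), ABCC3 and ABCA12. NRF2 targets had 4 higher (16%, beside 5.14%) and 2 lower (8%, beside 3.71%) members of 25. The lower ones were HMOX1 (2.87 and 4.19 against 30.1, 16.6, 15.4 and 16.2) and FTL, the ferritin light chain. PHGDH (12.5 and 11.9 against 2.74 to 5.28), PSPH and GPT2 were the 3 higher of 22 serine and amino acid genes (13.6%, beside 5.14% of all genes). None was lower (1 without control 1). Of these 3 calls, 0 held against the treated libraries, where PHGDH reached 19.8. VEGFA was higher, and the glucose transporter SLC2A3 and the carbonic anhydrase CA12 were lower, of 26 hypoxia and glycolysis genes (3.85% and 7.69%, beside 5.14% and 3.71%), and without control 1 the higher count was 3.

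Outside the lists, the rule for the largest differences named IGFBP3, a binding protein of insulin-like growth factors, at 240 and 221 in HCC827 against 4.72, 4.3, 4.48 and 5.11. PDZK1IP1 was at 230 and 222 against 0.371, 7.33, 5.52 and 3.8, SPP1 (osteopontin) at 64.7 and 65.9 against 0.54 to 0.809, and FGB (fibrinogen beta) at 52.3 and 54.7 against 0.0394 or less. KCNK1, LY6D and the gene AC007325.2 on a scaffold outside the assembled chromosomes were also among the 15 highest. In the lower direction it named CALB2 (calretinin, a calcium-binding protein of mesothelium) at 0.0365 and 0.104 against 30.6, 81, 68.3 and 67. ANPEP (aminopeptidase N) was at 0.447 and 0.414 against 17.9, 67, 95.5 and 94.6. DHRS2 (0.477 and 0.314 against 44.1 to 105), PLTP, a phospholipid transfer protein (0.122 and 0.0933 against 42.6 to 55.6), TMEM158, TDRD9 and CREB3L1 had the same direction. The 4 controls lay close together in IGFBP3, and control 1 was the lowest of them in CALB2 and ANPEP.

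Transcription factors were grouped by family after the data had been seen. Of 977 considered factors, 47 were higher (4.81%) and 50 lower (5.12%), beside 5.14% and 3.71% of all genes, so the higher share was near that of all genes. Without control 1 the counts were 76 and 72. Homeobox factors had 14 higher (25.9%) and 7 lower (13%) members of 54, the higher ones including NKX2-1 and the HOX genes and the lower ones IRX3 (0.192 and 0.0204 against 6.88, 17.6, 14.8 and 13.4), IRX5, MSX1 and EN2. Of 473 C2H2 zinc finger factors, 7 were higher (1.48%) and 33 lower (6.98%), or 15 and 43 without control 1, again beside 5.14% and 3.71% of all genes. On chromosome 19, where the KRAB zinc finger repressors of transposable elements are clustered, the counts were 1 higher (0.461%) and 25 lower (11.5%) of 217, with a median difference of -0.63. Elsewhere they were 6 higher (2.34%) and 8 lower (3.12%) of 256, with a median of 0.02. Without control 1 the counts were 3 and 34 on chromosome 19 and 12 and 9 elsewhere. ZNF43 was at 2.87 and 2.74 against 20.1, 7.84, 8.55 and 8.86, ZNF93, a repressor of LINE-1 elements, at 1.94 and 1.77 against 13, 6.66, 7.42 and 7.62, and ZNF880 at 3.03 and 3.64 against 29.7, 12.8, 11.8 and 11.1. In these 3 genes control 1 was the highest library. These genes resemble one another in sequence, so the assignment of their reads is uncertain. Other lower factors were SOX9 (2.35 and 2.5 against 14.6 to 24.4) and FOXC1, and other higher ones NR5A2 and HNF4G, nuclear receptors of gut and liver epithelium.

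Cancer-testis antigen genes, normally silent outside the germ line, were read in different sets: 5 of 11 considered were higher (45.5%, beside 5.14% of all genes) and 2 lower (18.2%, beside 3.71%). BRDT (3.69 and 4.58), MAGEA3, MAGEA6 and MAGEB2 were listed at 0 in all controls and DDX43 was at 0.135 or less. These 5 passed the filter only through HCC827. Their calls follow in part from the filter, so the share of 45.5% is only a description. CT45A1 and PRAME (3.51 and 4.16 against 12.6 to 15.5) were lower in HCC827, and CT45A1 passed only through the controls. MAGEA3 and MAGEA6 are near-identical and their split is uncertain. Imprinted genes differed in both directions, with MEST (15 and 14.6 against 3.45, 0.984, 1.06 and 1.05) and PLAGL1 higher and SNRPN listed at 0 in HCC827 against 1.28 to 1.84. The clustered histone genes HIST1H2BD and HIST1H4H were the 2 lower of 10 (20%, beside 3.71% of all genes), and without control 1 the count was 5 (beside 6.28%). Of 41 cytosolic ribosomal protein genes, RPL7 (1048 and 1036 against 377, 329, 176 and 193) was higher and RPS27L (0.858 and 0.851 against 2.83 to 5.62) lower, RPL7 having many processed copies that share its reads, and none of 13 mitochondrial transcripts was called, with differences of -0.22 to 0.24. BIK, a BH3-only promoter of apoptosis, was the only member called of 20 BCL2 family and death receptor genes, at 20.7 and 22.9 against 2.07, 1.52, 0.11 and 0.397 (5%, near the 5.14% of all genes; 3 members without control 1). Within the signalling lists, DKK1, a secreted WNT inhibitor (3.16 and 2.69 against 57, 31, 11.4 and 14.5), TGFBR1 (5.34 and 5.41 against 21.7 to 34.5) and BMP2 were lower, and NOTCH3 (6.48 and 8.17 against 1.2, 0.0922, 0.156 and 0.109) and SMAD6 were higher. Of 26 BMP and TGF-beta genes, 3 were lower (11.5%, beside 3.71% of all genes), or 7 without control 1, and of 18 WNT and NOTCH genes 1 was higher (5.56%, beside 5.14%), or 3 without control 1. S100A9 (101 and 170 against 3.24, 26.2, 38.8 and 25.7) and S100A14 were higher and S100A16 lower of 11 S100 genes. These shares were 18.2% and 9.09%, beside 5.14% and 3.71% of all genes, and without control 1 the lower count was 3 (beside 6.28%).

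**Figure D4:**
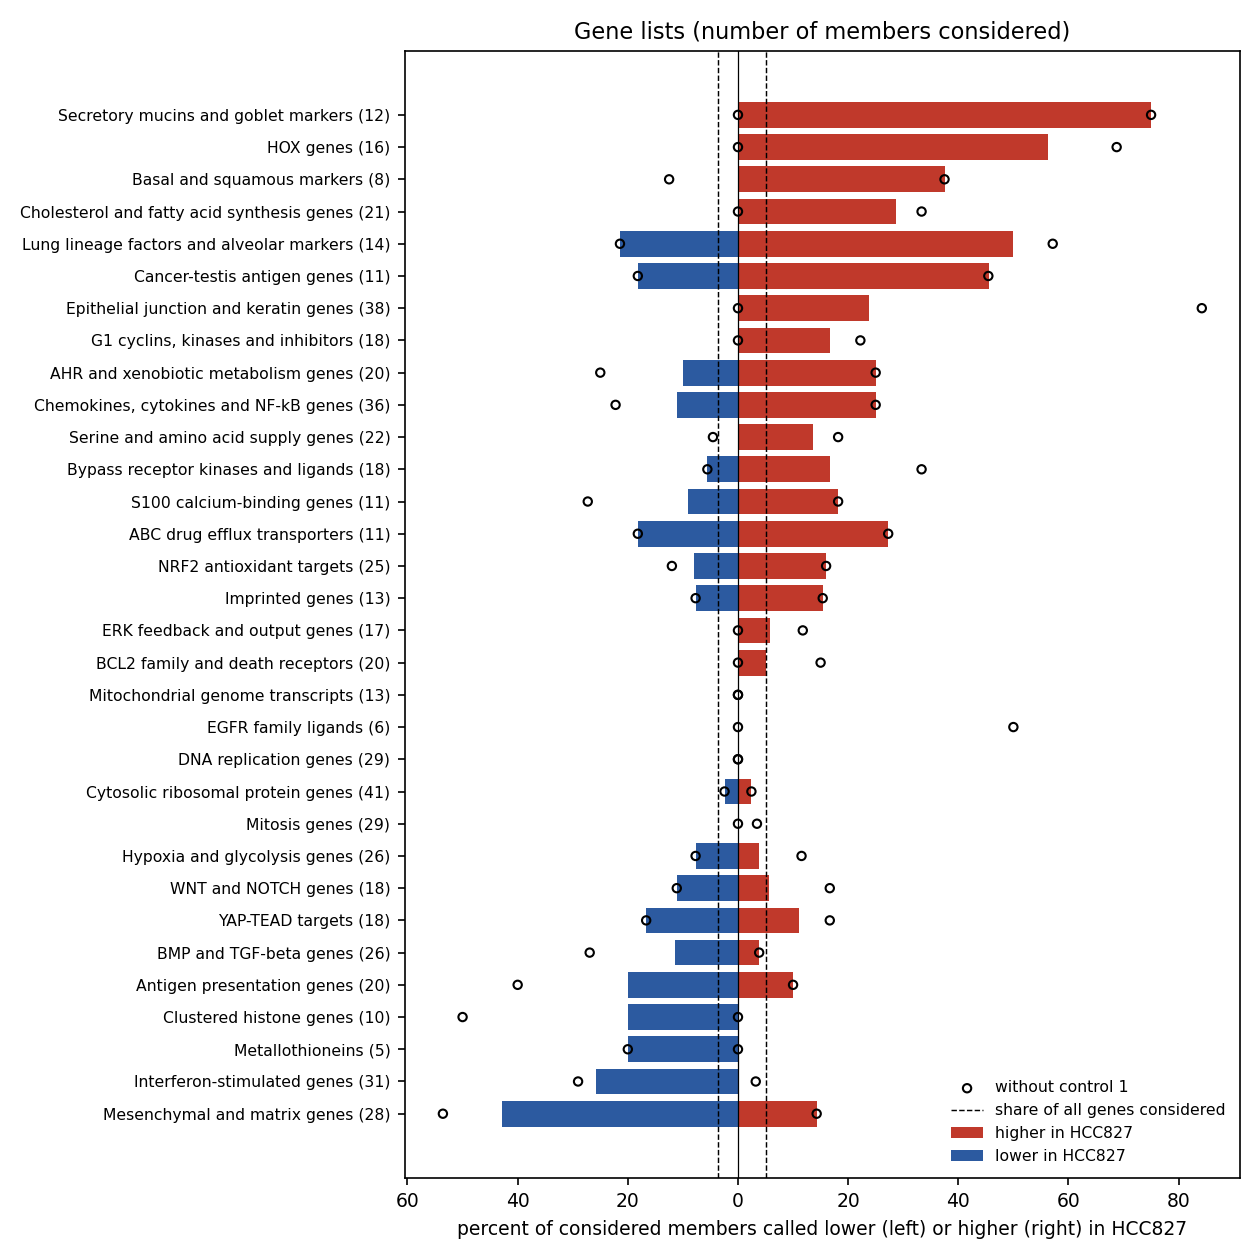
Bars give, for gene lists with at least 5 considered members, the percent called higher (right) or lower (left) in HCC827 against all 4 controls, open circles the same without control 1, and dashed lines the share of all genes considered (5.14% and 3.71%). The list labelled secretory mucins and goblet markers, which also holds membrane-bound mucins, leads with 75.0% higher. The mesenchymal list has 42.9% lower and 14.3% higher, and the circle for epithelial genes lies far beyond its bar of 23.7%.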

How the data were processed

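Total RNA of cultured cells was sequenced from libraries made with NEB reagents, per the labels' protocols. The authors deposited FPKM per gene in 3 tables, each normalized on its own. For aligner, counter and strand setting, nothing is given in the sources used here. Genome build is hg38 per the submitters' processing notes. In the HCC827 table, 2 columns whose names match no label were not used.

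The 3 tables were joined by gene identifier, and FPKM was rescaled by median ratios over 17664 genes above 0 in all 6 libraries. Levels were compared as log2(FPKM + 1), which understates differences of low genes. Protein-coding genes that reached 1 FPKM in 2 or more of the 6 libraries were considered, and a gene was called where the smallest gap between any HCC827 and any control library was at least 1. This rule was tested on simulated data. The simulated libraries held no table effect and no outlying control, so that test does not bear on either. No test was made across tables, and no p-value is given for any gene. Read depth (15.9 M to 21.3 M reads) was rebuilt from FPKM and gene length, in whole reads within a tolerance of 0.05 for genes of up to 2000 reads. Counting error limits low and short genes.

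Named by rule were EGFR, ERBB2, ERBB3, MET, AXL and IGF1R; the 15 genes per direction with the largest gap and at least 2 FPKM in the higher line; up to 4 called members per list and direction, or the 2 most abundant where none was called; called genes near EGFR; and up to 8 genes per direction listed at 0 in 1 line. Other genes named, among them those near CDK4, the remaining list members and single transcription factors, were chosen after their values were seen. Of 885 entries in 36 gene lists, 882 matched a gene. Members and lists were chosen with earlier results of these data known, so list counts are descriptions. MARCHF9 appears in the deposited tables under a name altered by spreadsheet software and was identified by its gene identifier. Some genes are not reported here by name; list counts include them. Alternatives changed the pseudocount, rescaling, filter, gap and libraries used. Python 3.11.15, numpy 2.4.6, pandas 2.3.3 and matplotlib 3.10.9 were used.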

Additional observations from a re-analysis of the deposited data

Results flagged for a closer look

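Among the named genes, 30 had 1 control library whose gap to its nearest neighbour took up most of the range of the 4 NCI-H1975 controls. Chance alone gives such a mark to about 1 in 20 groups of values. Control 1 carried 21 of the 30 marks (12 high, 9 low), control 2 carried 6, control 3 carried 2 and control 4 carried 1.

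Control 1 was set apart upward, in rescaled FPKM, for AXL (24.9), EREG (75.5), MET (121), ERBB3 (2.65), EHF (7.19), MEST (3.45), MTAP (3.49), NOTCH3 (1.2), HMOX1 (30.1), IL11 (22.4) and ABCA12 (1.74), and for FGB (0.0394), which was listed at 0 in the other controls. It was set apart downward for HLA-B (56.5), ERAP2 (16.1), CYP1B1 (71.8), ELF3 (5.46), CREB3L1 (12.7), CA12 (2.34), HIST1H2BD (11.2), IL32 (2.15) and SAA1 (0).

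Control 2 was high for VIM (216), CTGF (47.7), CYR61 (151), CDC20 (157) and LANCL2 (14.5) and low for CMBL (13.7). Control 3 was high for CYP2S1 (0.6) and low for IL7R (14.3), and control 4 was at 0 for COL4A2, where the other controls were at 0.00277 or less. No such difference turned the direction of a called gene, since each call holds against every control.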

How the results depend on the processing

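The main counts were 595 higher, 430 lower, 7 higher near EGFR, 53 between the control tables and 741 kept against the treated libraries. Leaving out 1 library at a time gave 604 to 913 higher, 443 to 727 lower and 7 to 8 near EGFR, the largest counts being those without control 1. With a pseudocount of 0.1, 741 were lower, 200 differed between the control tables and 1172 were kept. With upper-quartile rescaling, 85 differed between the control tables. With a mean FPKM of at least 5, 254 were higher, 284 lower and 380 kept. With any gap above 0, 3146 were higher, 3643 lower, 11 near EGFR, 6865 between the control tables and 5032 kept, and with a gap of at least 2 the counts were 164, 78, 3, 1 and 208. A difference of group means of at least 1 gave 1137 higher and 1029 lower. Controls 1 and 2 alone gave 654 lower, controls 3 and 4 alone 1061 higher and 889 lower, and all 12 NCI-H1975 libraries 274 lower. Over all genes, 258 differed between the control tables. Fewer libraries or a smaller gap raise these counts by construction; for the other settings the cause was not tested. The share of calls that were higher was 58.0%, and 63.5% with upper-quartile rescaling, 47.2% with a mean FPKM of at least 5, 46.3% with any gap and 67.8% with a gap of at least 2. The median of all genes ran from -0.11 without rescaling to 0.01. Of 156 named genes, the 143 called kept their sign under every alternative run. This follows largely from the call rule, which already sets both HCC827 libraries at least 1 beyond every control. Leaving out libraries or changing the pseudocount could not turn such a sign. No paired analysis was possible because the lines lie in separate tables and no test was made.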
